A study of Caenorhabditis elegans with 6 samples.

Results

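The microRNAs lin-4 and miR-237 are the pair described here, out of 108 miRNA oligonucleotides printed on a spotted array. They were chosen by name, as the spots whose target the scanner files give as lin-4 or miR-237. Each miRNA had 4 spots an array, so that 8 of the 576 spots of an array belonged to them. The arrays were hybridised with short RNA of whole adult Caenorhabditis elegans of 2 mutant genotypes. fem-3(q20ts) carries a temperature-sensitive gain-of-function allele, and at the restrictive temperature its germ line makes sperm and no oocytes. fem-2(b245ts) carries a temperature-sensitive loss-of-function allele, and its germ line makes oocytes and no sperm. Synchronised populations of both were raised at 25 °C and collected 24 hours past late L4, on day 1 of adulthood. The 4 biological samples, replicates 1 and 2 of each genotype, were read on 6 arrays, because replicate 1 was hybridised to 2 technical arrays and replicate 2 to 1. No wild-type sample was analysed here, so every difference is one mutant against the other.

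lin-4 was the first miRNA to be discovered. In the heterochronic pathway, which sets the order of larval cell fates, it represses lin-14 and lin-28 by pairing with their mRNAs, and so lets cells leave the programme of the first larval stage. It stays present in adults, where it is known to affect life span through lin-14. miR-237 has the same seed, the stretch near the 5′ end that pairs with targets. The pair are the worm relatives of miR-125 of mammals, and miR-237 is known to act on jun-1 in the response to radiation. In the RefSeq table of assembly WBcel235, the lin-4 gene lies on chromosome II within the span of the protein-coding gene F59G1.4 and overlaps the non-coding RNA gene F59G1.10. The mir-237 gene lies on chromosome X between the protein-coding genes F22F1.2 and hil-3 and overlaps no listed gene. The table gives no exons, so the part of F59G1.4 that holds lin-4 is not stated here.

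The arrays were set to one total intensity by the authors. The median spot ranged from 101 to 178 over the 6 arrays, and 63 to 104 of the 108 miRNA oligos exceeded the Buffer level of their array, the 95th percentile of its 32 Buffer spots. That level was 36.5, 41.5 and 19.0 on the fem-3(q20ts) arrays and 127, 114 and 21.5 on the fem-2(b245ts) arrays, in the order of replicate 1 array 1, replicate 1 array 2 and replicate 2. It was therefore higher on the fem-2(b245ts) arrays of replicate 1 than elsewhere. All 7 miRNAs of the oocyte and embryo list (miR-35 to miR-41), chosen with earlier results of these data known, were lower in fem-3(q20ts). They passed the test, with a median log2 difference of -5.03. Over all 94 tested miRNAs 7.45% were called as lower in fem-3(q20ts), and these were the same 7. Their summed intensity was 330 and 455 in fem-3(q20ts) against 9991 and 12904 in fem-2(b245ts). Of the 7, miR-41 exceeded the Buffer level on 0 of 3 fem-3(q20ts) arrays, miR-37 and miR-40 on 1 of 3 and miR-38 on 2 of 3. The sizes of the differences of these 4 are therefore not exact. In fem-3(q20ts) the mean intensity of miR-37, miR-40 and miR-41 was 23.4, 33.9 and 12.7. These means lay under the level of 37.2 that an oligo's mean over both genotypes had to exceed to be tested. miR-37, miR-40 and miR-41 thus entered the test only through their signal in fem-2(b245ts).

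In both replicates lin-4 had more signal in fem-3(q20ts), the spermatogenic mutant, than in the oogenic fem-2(b245ts). Averaged over its 4 spots, its intensity on the fem-3(q20ts) arrays was 969 and 1150 for replicate 1 and 1609 for replicate 2. On the fem-2(b245ts) arrays it was 449 and 460 for replicate 1 and 718 for replicate 2. All 3 fem-3(q20ts) arrays were above all 3 fem-2(b245ts) arrays, and the groups of samples did not overlap. Many other tested miRNAs also had samples without overlap, such as miR-2 (higher in fem-3(q20ts)) and miR-72 (lower). The lack of overlap therefore does not set lin-4 apart.

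The single spots of lin-4 showed the same order within each replicate. In replicate 1 they ran from 846 to 1545 on the fem-3(q20ts) arrays and from 367 to 626 on the fem-2(b245ts) arrays. In replicate 2 they ran from 1319 to 2204 in fem-3(q20ts) and from 627 to 923 in fem-2(b245ts). Across replicates the ranges met, since the brightest fem-2(b245ts) spot, in replicate 2, exceeded the dimmest fem-3(q20ts) spots of replicate 1. The 4 print positions of lin-4 gave log2 differences, fem-3(q20ts) minus fem-2(b245ts), of 1.05, 1.13, 1.22 and 1.35. No single print position carried the difference.

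**Figure D1:**
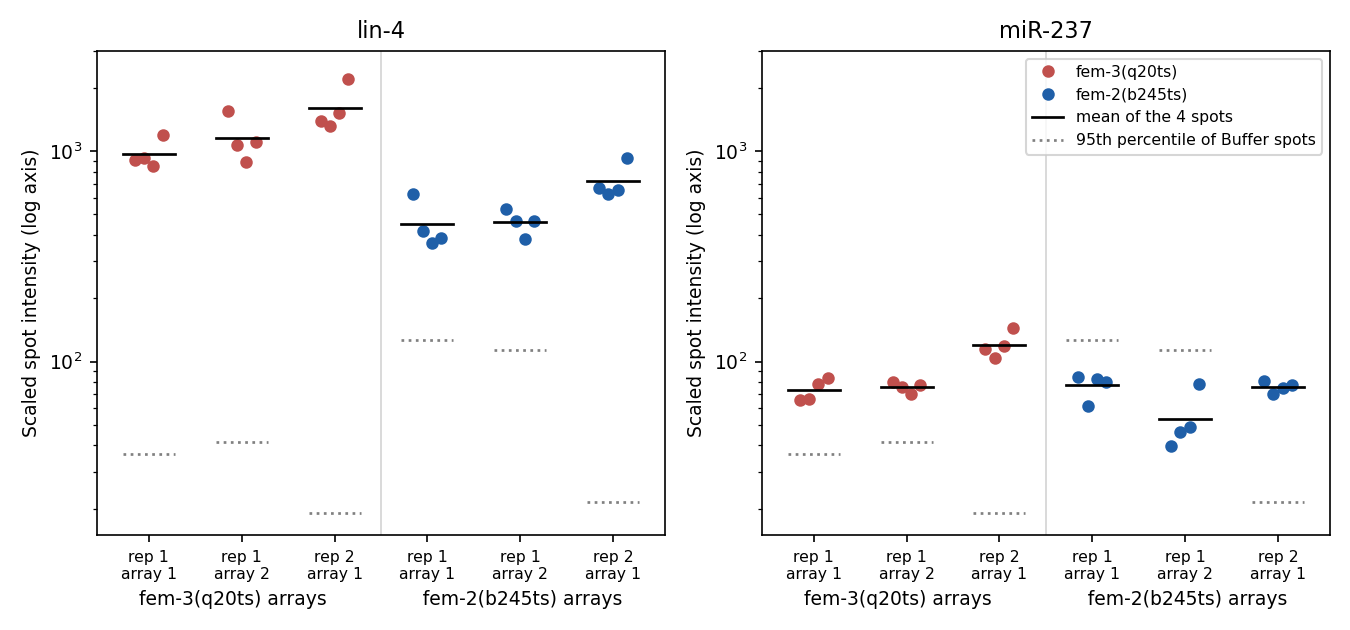
Scaled intensity of each of the 4 spots of lin-4 (left) and miR-237 (right) on the 6 arrays, on a log axis, with fem-3(q20ts) in red and fem-2(b245ts) in blue. Black lines are the means of the 4 spots and dotted lines the 95th percentile of the Buffer spots of that array. The lin-4 means of 969 to 1609 in fem-3(q20ts) lie above those of 449 to 718 in fem-2(b245ts), whereas the miR-237 means overlap.

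lin-4 was bright enough to be measured on every array. Its mean stood 26.5, 27.7 and 84.6 times above the Buffer level on the fem-3(q20ts) arrays and 3.54, 4.04 and 33.5 times on the fem-2(b245ts) arrays. In the 4 scanner files, all of replicate 1, its spots had signal-to-noise scores of 63.2 to 134 in fem-3(q20ts) and of 2.61 to 39.3 in fem-2(b245ts). The score exceeded 3 for 8 of 8 and for 6 of 8 spots in these genotypes, the scanner software marked all of them as detected, and 0 spots had saturated pixels. Before the authors' scaling, the mean background-subtracted intensity of lin-4 was 1406 and 1425 on the 2 fem-3(q20ts) arrays of replicate 1, against 407 and 486 on the 2 fem-2(b245ts) arrays. The total of all spots on these arrays was 579809 and 489789 in fem-3(q20ts), against 359018 and 417847 in fem-2(b245ts). The scaling thus reduced the lin-4 difference of replicate 1, which was 1.67 on the log2 scale without it.

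By biological sample, with technical arrays averaged, lin-4 had an intensity of 1334 ± 388 in fem-3(q20ts) and 586 ± 187 in fem-2(b245ts) (SD, n = 2 each). Its log2 difference of 1.18 (SE 0.40, 95% interval 0.15 to 2.21) amounts to 2.27-fold. The difference did not pass limma's test over all 94 tested miRNAs (adjusted p = 0.299). That test called 8.51% of the miRNAs, 1.06% as higher in fem-3(q20ts) and 7.45% as lower. An exact permutation test gave p = 0.333, the smallest that 2 samples against 2 allow.

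The spread that stood against the lin-4 difference was mostly shared by the genotypes. Replicate 2 exceeded replicate 1 by 0.60 on the log2 scale in fem-3(q20ts) and by 0.67 in fem-2(b245ts), and the genotypes differed by 1.22 in replicate 1 and by 1.15 in replicate 2. With the replicate number as a block in the fit, the lin-4 difference of 1.18 had an SE of 0.17 (95% interval 0.68 to 1.69) and passed (limma adjusted p = 0.0417). That fit called 9.57% of the 94 miRNAs, 2.13% (2 miRNAs) as higher in fem-3(q20ts) and 7.45% as lower. Its unadjusted limma p was under 0.05 for 28 of the 94, against 10 in the main fit. The block leaves 1 residual degree of freedom, to which limma adds 2.35 prior ones drawn from all tested miRNAs. miR-77, miR-47 and miR-70 also had an SE of 0.17, so this SE does not measure the spread of lin-4 alone. The block also relies on reading the replicate number, which goes with a shared token in the sample descriptions, as a pairing. This was the only setting of those tried in which lin-4 passed.

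lin-4 stood second among the 94 differences ordered from the highest. It was 1 of 2 miRNAs whose difference exceeded 1 in both replicates. The other, miR-243, was named after its values were seen. The median difference of all 94 was 0.14, and 54 of them were above 0. Centred on the median level of the tested miRNAs of the same array, lin-4 lay at 1.90 and 2.50 in fem-3(q20ts) on the log2 scale. It lay at 0.33 and 0.98 in fem-2(b245ts). Median centring thus moved the lin-4 difference to 1.55, and it moved the median difference of all 94 to 0.50 as well.

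**Figure D2:**
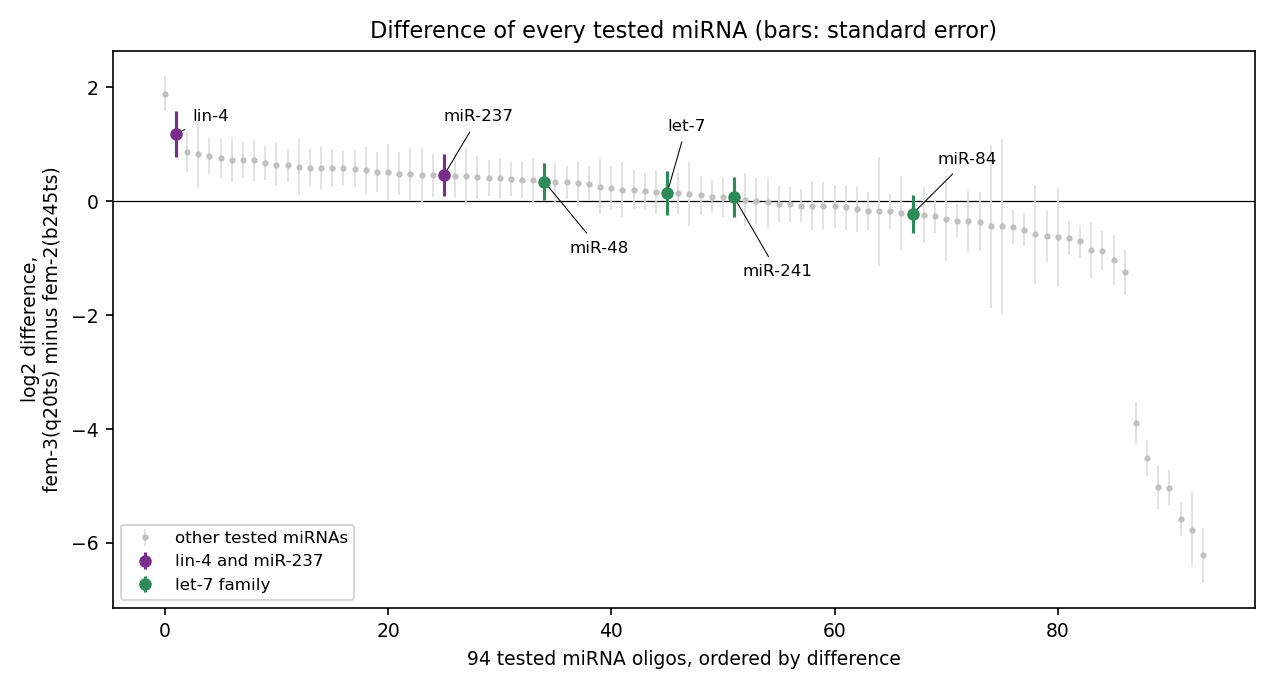
The log2 difference, fem-3(q20ts) minus fem-2(b245ts), of each of the 94 tested miRNAs, ordered from the highest to the lowest, with the standard error from limma as bars. lin-4 at 1.18 is the second from the left, miR-237 at 0.45 lies among the other positive differences, and the 4 let-7 family miRNAs (green) lie between -0.22 and 0.34.

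miR-237 was dim, and its groups overlapped. Its mean intensity was 73.6 and 75.7 on the fem-3(q20ts) arrays of replicate 1 and 120 on that of replicate 2. On the fem-2(b245ts) arrays it was 77.2 and 53.3 for replicate 1 and 75.8 for replicate 2. The fem-3(q20ts) array of replicate 2 was the brightest, the second fem-2(b245ts) array of replicate 1 was the dimmest, and the other 4 lay between 73.6 and 77.2.

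The signal of miR-237 exceeded the Buffer level on 3 of 3 fem-3(q20ts) arrays, by 2.02, 1.82 and 6.34 times. On the fem-2(b245ts) arrays it did so on 1 of 3: the ratio was 0.61 and 0.47 on the arrays of replicate 1 and 3.53 on that of replicate 2. Its level in fem-2(b245ts) is thus measured above background in replicate 2 alone. In the scanner files, the signal-to-noise score of miR-237 exceeded 3 for 7 of 8 spots in fem-3(q20ts) and for 3 of 8 in fem-2(b245ts). The scanner software marked 8 of 8 spots as detected in fem-3(q20ts) and 4 of 8 in fem-2(b245ts). With the median Buffer spot subtracted from each array, the log2 difference described next was 0.61 in place of 0.45.

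By biological sample miR-237 had an intensity of 97.6 ± 32.4 in fem-3(q20ts) and 70.5 ± 7.44 in fem-2(b245ts) (SD, n = 2 each). The log2 difference of 0.45 (SE 0.37, 95% interval -0.49 to 1.40) did not pass (limma adjusted p = 0.625, exact permutation p = 0.667). It was 0.25 in replicate 1 and 0.66 in replicate 2. With the replicate block it did not pass either (limma adjusted p = 0.231, 95% interval -0.15 to 1.06). The interval of the unblocked fit spans no change and a difference as large as that of lin-4. In rank from the highest, miR-237 was number 26 of 94. Averaged over the replicates, its 4 print positions gave differences of 0.41, 0.49, 0.45 and 0.46. They agreed less within a replicate, running from 0.018 to 0.42 in replicate 1 and from 0.50 to 0.91 in replicate 2. The log2 difference of miR-237 was 0.11 without fem-3(q20ts) replicate 2. Within replicate 1, normexp correction of the scanner files gave 0.040 in place of 0.25. That correction added an offset of 50 to every spot before scaling to the array total, and the part of the offset in the drop was not tested.

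As measured, the difference of lin-4 exceeded that of miR-237 by 0.97 in replicate 1 and by 0.49 in replicate 2. The replicate 1 value is not exact, since miR-237 was below the Buffer level on both fem-2(b245ts) arrays of that replicate. The mean of 0.73 cannot pass an exact permutation test with 2 samples a genotype (p = 0.333, the smallest possible). These oligos resemble each other at the end that carries the seed, and hybridisation of lin-4 RNA to the miR-237 oligo was not tested. Signals of different oligos are not on one scale, so the higher intensity of lin-4 says nothing of which miRNA was more abundant.

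The rest of the developmental timing list is the let-7 family: let-7, which promotes the passage from larval to adult fates, and its relatives miR-48, miR-84 and miR-241, which act earlier and together repress hbl-1. The genes of let-7 and miR-84 lie on chromosome X, and those of miR-48 and miR-241 lie next to each other on chromosome V. Of the 6 miRNAs of the list with lin-4 and miR-237, 5 had a positive and 1 a negative difference. In limma 0 passed (adjusted p of 0.299 to 0.909, 1 of 6 at an unadjusted p under 0.05). Over all 94 tested miRNAs, 10 had an unadjusted limma p under 0.05, 2 of them higher in fem-3(q20ts) and 8 lower. The count of positive differences depended on scaling and on single samples. It was 4 on the total of all miRNAs, 3 on the miRNAs other than the miR-35 family, and 6 under quantile normalization, median centring or the spike control. For scaling, the miR-35 family was taken as miR-35 to miR-42. It was 3 without fem-2(b245ts) replicate 1, where let-7 was at -0.26 and miR-241 at -0.20, 3 within replicate 2, and 4 with the second technical array of replicate 1 only. In limma with the replicate block 1 of 6 passed, which was lin-4, where that fit called 9 of all 94 (9.57%). The median of the 6 was 0.24, against 0.14 over all tested miRNAs, and that of the 4 let-7 relatives alone was 0.10.

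Each let-7 relative differed less than lin-4. let-7 had 438 and 503 in fem-3(q20ts) and 340 and 559 in fem-2(b245ts), so that the fem-3(q20ts) samples lay within the range of the others (log2 difference 0.14, limma adjusted p = 0.909). miR-48 had 2160 and 2972 in fem-3(q20ts) and 1919 and 2145 in fem-2(b245ts), without overlap but with only a narrow gap (0.34, limma adjusted p = 0.656). miR-84 had 266 and 366 in fem-3(q20ts) and 328 and 405 in fem-2(b245ts), the negative difference of the list (-0.22, limma adjusted p = 0.814). The sign of miR-84 turned under quantile normalization, median centring and scaling on the spike control, without fem-3(q20ts) replicate 1, and in replicate 1 before the authors' scaling. That of let-7 turned on all miRNAs but the miR-35 family (-0.19), with the second technical array of replicate 1 only (-0.04), within replicate 2 (-0.15) and without fem-2(b245ts) replicate 1. miR-241 had 215 and 170 in fem-3(q20ts) and 152 and 219 in fem-2(b245ts), with opposite directions in the replicates (0.07, limma adjusted p = 0.909). Its sign also turned on all miRNAs (-0.05), on those outside the miR-35 family (-0.26), and without replicate 1 of either genotype. The difference of lin-4 exceeded the mean of these 4 by 1.00 in replicate 1 and by 1.20 in replicate 2.

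**Figure D3:**
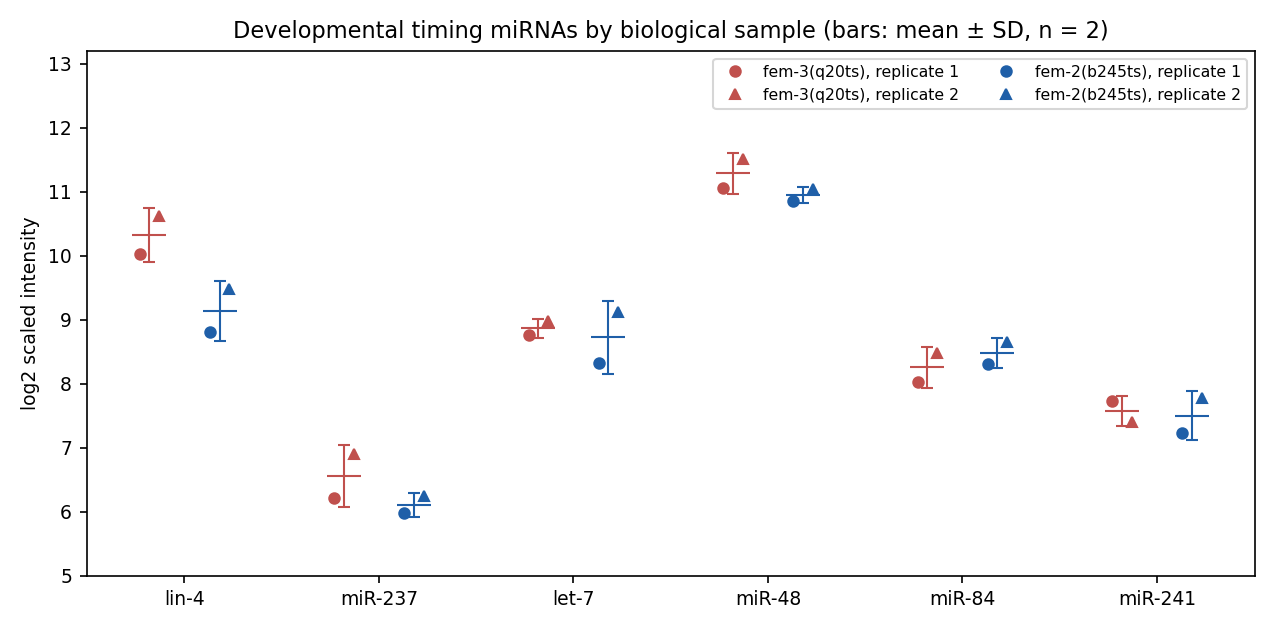
log2 scaled intensity of the 6 developmental timing miRNAs in each biological sample, with fem-3(q20ts) in red left of fem-2(b245ts) in blue, circles for replicate 1, triangles for replicate 2, and bars for the mean ± SD. The samples of the genotypes are separate for lin-4 and, by a narrow gap, for miR-48, and overlap for the other 4. Such separation was also seen for many tested miRNAs outside this list. Heights of different miRNAs are not comparable, since each is read by its own oligo.

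lin-4 and miR-237 are known to act in somatic cells, so markers of somatic tissues were set beside them. In whole animals, more cells of a type and more of an RNA in each cell cannot be told apart. Of the 5 markers listed, 4 had an oligo, and each of these exceeded the Buffer spots on every array: miR-1 of muscle (-0.17), miR-60 of the intestine (0.75), miR-124 of sensory neurons (0.41) and miR-228 of glia (0.42). None passed in limma (adjusted p of 0.390 to 0.866, 0 of 4 at an unadjusted p under 0.05, against 10 of all 94). Their summed intensity was 2263 and 2661 in fem-3(q20ts) and 2078 and 2320 in fem-2(b245ts). The lin-4 difference exceeded the mean of the 4 by 0.83, being 0.96 above it in replicate 1 and 0.71 in replicate 2. The miR-237 difference minus that mean was 0.10. It was -0.015 in replicate 1 and 0.22 in replicate 2, so the replicates differed in sign. In replicate 1 miR-237 was below the Buffer level in fem-2(b245ts). The value of that replicate and the mean of 0.10 are therefore not exact. The part of tissue proportions in the lin-4 difference was not tested beyond these markers.

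Scaling moved the sizes of both differences together with those of all miRNAs. With each array set to the total of all miRNAs but the miR-35 family (miR-35 to miR-42), lin-4 was at 0.86 and miR-237 at 0.13. The median difference of all tested miRNAs was then -0.19. On the spike control they were at 1.75 and 1.01, where that median was 0.70. In the values as deposited, and under both of these scalings, which shift an array's miRNAs by one amount, lin-4 lay 1.05 and miR-237 0.32 above the median difference.

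**Figure D4:**
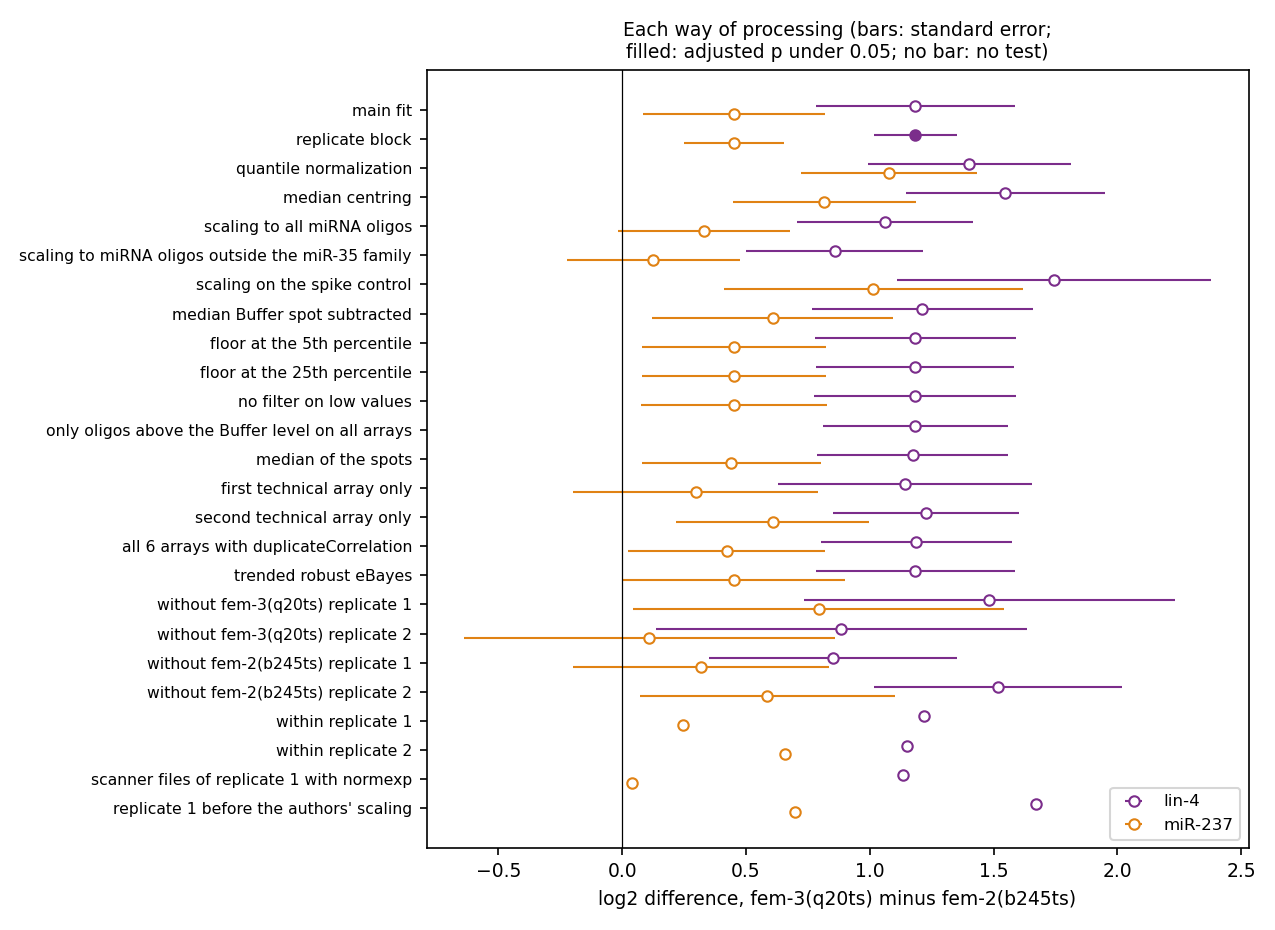
The log2 difference, fem-3(q20ts) minus fem-2(b245ts), of lin-4 (purple) and miR-237 (orange) under each way of processing, with standard errors where there is a test. All values lie right of 0, lin-4 from 0.85 to 1.75 and miR-237 from 0.04 to 1.08. The only filled symbol, for a limma adjusted p under 0.05, is lin-4 with the replicate block.

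By its pattern over the 6 arrays, lin-4 was closest to miR-77, miR-56, miR-80, miR-47 and miR-82. Likeness was measured as the root mean square distance of log2 values, each miRNA centred on its own mean. The distances were 0.26, 0.30, 0.31, 0.32 and 0.36, against a median of 0.66 over the other tested miRNAs. These 5 had log2 differences of 0.79, 0.60, 0.73, 0.64 and 0.58, all smaller than that of lin-4. None passed (limma adjusted p of 0.379 to 0.625, 0 of 5 at an unadjusted p under 0.05, against 10 of all 94). miR-80 and miR-82 belong to the miR-58 family, relatives of bantam of flies. miR-237, at a distance of 0.47, was number 21 in this order.

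The miRNAs closest to miR-237 were miR-228, miR-48, miR-124, miR-53 and miR-259, at distances of 0.05, 0.10, 0.11, 0.15 and 0.15, against a median of 0.46. All 5 had log2 differences between 0.34 and 0.45. None passed (limma adjusted p of 0.625 to 0.656, 0 of 5 at an unadjusted p under 0.05, against 10 of all 94). Like miR-237, they were highest on the fem-3(q20ts) array of replicate 2 and lowest on the second fem-2(b245ts) array of replicate 1. miR-228 and miR-124 are the glial and neuronal markers named above, and miR-48 is a let-7 relative. lin-4 was number 49 in the order for miR-237, so that the seed relatives were not each other's nearest in pattern. On both fem-2(b245ts) arrays of replicate 1 miR-237 was below the Buffer level. Its distances, and its place in the order for lin-4, are therefore not exact. The arrays share scaling and include technical pairs, so these distances describe the 6 arrays and carry no test.

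**Figure D5:**
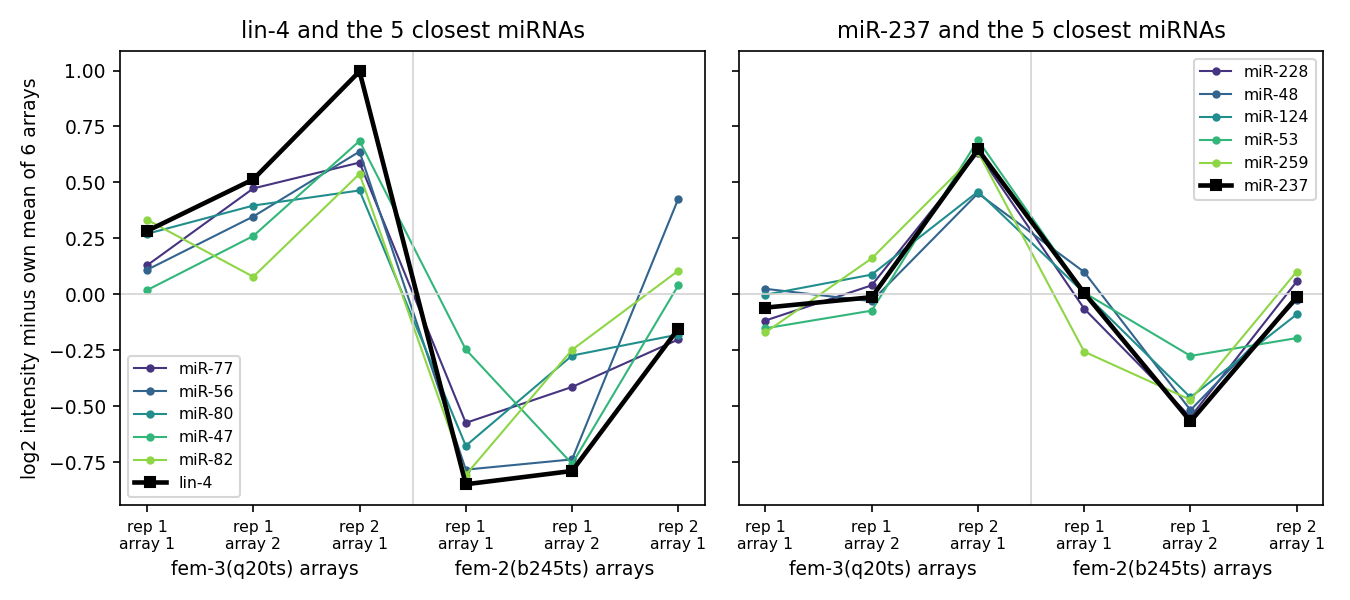
log2 intensity minus the miRNA's own mean of the 6 arrays, for lin-4 (left, black) and miR-237 (right, black) and the 5 miRNAs closest to each, with the fem-3(q20ts) arrays left of the fem-2(b245ts) arrays. Lines only join the points of one miRNA. lin-4 lies above 0 on all fem-3(q20ts) arrays and below 0 on all fem-2(b245ts) arrays, whereas miR-237 departs from 0 mainly on 1 array of each genotype. On that fem-2(b245ts) array miR-237 was below the Buffer level.

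For lin-4, the second technical array of replicate 1 exceeded the first by 0.23 on the log2 scale in fem-3(q20ts) and by 0.06 in fem-2(b245ts). For miR-237 these values were 0.05 in fem-3(q20ts) and -0.57 in fem-2(b245ts). Over all tested miRNAs the median size of this difference was 0.24 in fem-3(q20ts) and 0.41 in fem-2(b245ts). The value of -0.57 comes from the 2 arrays on which miR-237 was below the Buffer level. Between biological replicates, lin-4 differed by 0.60 in fem-3(q20ts) and 0.67 in fem-2(b245ts), and miR-237 by 0.68 in fem-3(q20ts) and 0.27 in fem-2(b245ts).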

How the data were processed

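The deposited table gives the linear intensity (Cy3, 1 colour) of each spot, which the authors scaled on the total intensity of each array, per the labels. Scanner files of the 4 arrays of replicate 1 give mean and background intensity, a signal-to-noise score and a percent of saturated pixels, per the file headers. For every spot of lin-4 and miR-237 on these arrays, the table's value was the scanner's background-subtracted intensity times 1 factor per array (tolerance 0.1%). Which scanner software was used is not given in the sources used here. The scanner files' spot names were joined by spot number, also for the arrays of replicate 2.

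Values below 12.8, the 10th percentile of the positive intensities, were raised to it, and all were log2-transformed, averaged over the 4 spots and then over technical arrays. An oligo was tested if its mean exceeded the Buffer level averaged over the samples (an intensity of 37.2), which kept 94 of 108. Differences, fem-3(q20ts) minus fem-2(b245ts), were tested two-sided with limma 3.58.1 in R 4.3.3 (2 residual and 3.05 prior degrees of freedom) with Benjamini-Hochberg adjustment at 0.05, after a check on simulated data. Exact permutation tests were two-sided.

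The main fit and the permutation tests were unpaired. For the replicate block and the within-replicate values, samples with the same replicate number were treated as pairs, since their descriptions share a date-like token, whose meaning the labels do not state. Over the 94 miRNAs, the change between replicates in fem-3(q20ts) correlated with that in fem-2(b245ts) (r = 0.711, a description, since miRNAs are not independent). Named miRNAs were the pair, the developmental timing list, the tissue markers and the 5 closest in pattern to each of the pair. The members, lists and alternatives were chosen with earlier results of these data known. All 6 names of the timing list matched the RefSeq table of WBcel235, used for chromosomes and neighbours only, since the files name no assembly. Arrays have no read depth, and their number limits the precision.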

Additional observations from a re-analysis of the deposited data

How the results depend on the processing

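Over 24 other ways of processing, the lin-4 difference stayed positive, from 0.85 to 1.75, and it passed in 1 of the 20 with a test, the replicate block (1.18, limma adjusted p = 0.0417, others up to 0.955). Its unadjusted p was under 0.05 in 16 of the 20. In replicate 1 before the authors' scaling, an alternative chosen after seeing the data, it was 1.67. The miR-237 difference stayed positive in 23 others, passed in 0 of 19 in limma (1 of 19 at an unadjusted p under 0.05, quantile normalization, with a value of 1.08 and an adjusted p of 0.154), and was 0.040 in replicate 1 with normexp, against 0.25 in replicate 1 without it. With 1 biological sample left out, lin-4 ranged from 0.85 to 1.52, miR-237 from 0.11 to 0.79 and the median of the timing list from 0.024 to 0.49. That median was 0.45 after quantile normalization, 0.60 with median centring, 0.80 on the spike control, 0.79 before scaling and -0.085 on all miRNAs but the miR-35 family. These scalings shift all miRNAs together, apart from quantile normalization. The number of miRNAs called was 8 and became 9 with the replicate block. It was 4 among the 59 oligos above the Buffer level on all arrays. That filter removed miR-37, miR-38, miR-40 and miR-41, which the main fit had called. It also removed miR-237, so it gave no value for miR-237 or for the list. The replicate block changed no other call on the timing list. Signal near the Buffer level limits miR-237, and 2 samples a genotype limit every result.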
